A study of Drosophila melanogaster with 6 samples.

Results

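The aminoacyl-tRNA synthetases are the enzymes that load each tRNA with its amino acid, and their transcripts were compared here between METH-treated and control Drosophila males. A gene was taken as a member when its current symbol is the short code of an amino acid (or GluPro) followed by RS, or by RS-m for an enzyme of the mitochondrion, or when an older symbol begins with Aats-. This rule named 33 genes, and 30 of them had a probe set paired with that gene alone, out of 11983 genes measured in this way. Of these, 16 encode cytosolic and 14 encode mitochondrial enzymes, named so by their symbols. The rule named no -m gene for glutamine, glycine, histidine, lysine or threonine. Some genes counted here as cytosolic may therefore serve the mitochondrion as well. The lack of an -m gene does not show this for any single one of them. AspRS, MetRS and AlaRS-m were not analysed here. The 5-day-old flies were virgin males of the w1118 strain, which carries a mutation in the white eye colour gene. Each sample pooled the whole bodies of 20 males that had fed for 24 h either on a standard fly diet with 0.6% (w/v) methamphetamine or on that diet without the drug, and the labels describe the diet of every sample as a blue diet. There were 3 samples per diet, each hybridized to its own Affymetrix Drosophila Genome 2.0 array. In RNA from whole flies, fewer cells of a type and less RNA per cell cannot be told apart.

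Each synthetase recognizes an amino acid, activates it with ATP and joins it to the matching tRNA, which then carries it to the ribosome. Animals keep a set of these enzymes in the cytosol and another in the mitochondrion, where it serves the few proteins made from mitochondrial DNA, and both sets are encoded in the nucleus. In humans, the genes of the glycine and lysine enzymes each provide both forms. The enzymes fall into a pair of unrelated structural classes. Several cytosolic ones are held together with the scaffold proteins AIMP1, AIMP2 and AIMP3 in a multisynthetase complex. Uncharged tRNA activates the kinase Gcn2, which slows initiation of translation through eIF2 and favours translation of the transcription factor ATF4, encoded by crc in Drosophila. In mammals ATF4 raises the transcription of many synthetase genes and of enzymes that make amino acids.

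The signals are given as a percentage of that of the actin control AFFX-Dros-ACTIN_M_r on the same array, the reference named in the study's methods, and written below as a percentage of actin. A log2 change is the mean log2 value on the METH arrays minus that on the control arrays. The signal of this reference lay between 922 and 1218 for control and between 700 and 868 for METH arrays, with the lowest value on METH replicate 3. With this reference the 18769 probe sets had a median log2 change of 0.24, and 74.5% of them lay above 0. Differences between diets were tested with limma, and p values were adjusted over all probe sets by the Benjamini-Hochberg method. The adjusted p was under 0.05 for 158 probe sets (0.842%) that rose and 78 (0.416%) that fell in METH-treated flies. With the signals as deposited 114 (0.607%) rose and 381 (2.03%) fell. The labels call the 3 samples of a diet biological replicates, and the p values measure only the spread between them.

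Cytosolic synthetase transcripts were higher on average in METH-treated flies. All 16 had a log2 change above that of the median probe set, from 0.26 to 0.97 with a median of 0.45, which is 0.21 above the median of all probe sets. With the signals as deposited 13 of the 16 lay above 0 and their median was 0.076, against -0.13 for all probe sets. AsnRS and ValRS passed limma's adjusted threshold as higher, where 0.842% of all probe sets did, and none passed it as lower. The unadjusted p was under 0.05 for 13 of the 16 in the higher direction and for none in the lower, while it was for 9.38% and 2.12% of all probe sets, and for 13.6% in the higher direction among the 11261 that remained after dim probe sets were left out. In the higher direction it was so for 3 of the 16 with the signals as deposited and for 7 with median centring, against 335 and 659 of the 18769 probe sets. The methods' t-test called 2 of the 16, AsnRS and ValRS, at the cutoff of the methods (p of 0.005 or less and at least 1.5-fold), against 0.922% of all probe sets called higher and 0.256% lower. At the p of 0.008 that the study used for its pathway analysis, SerRS was called as well, against 1.25% and 0.33%. After Benjamini-Hochberg adjustment the methods' t-test called 2 of all probe sets, and its adjusted p was 0.21 for AsnRS and 0.164 for ValRS. The 3 METH arrays lay above the 3 control arrays for 14 of the 16 genes, against 15.7% of all probe sets and 21.1% of the brighter ones, and below them for none, against 2.58%. With each array centred on its own median this held for 8 of the 16 (AlaRS, AsnRS, GlyRS, IleRS, LeuRS, SerRS, TrpRS and ValRS), against 7.33% of all probe sets and 8.9% of the brighter ones. With the signals as deposited it held for AsnRS, SerRS, TrpRS and ValRS, against 2.61%.

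**Figure D1:**
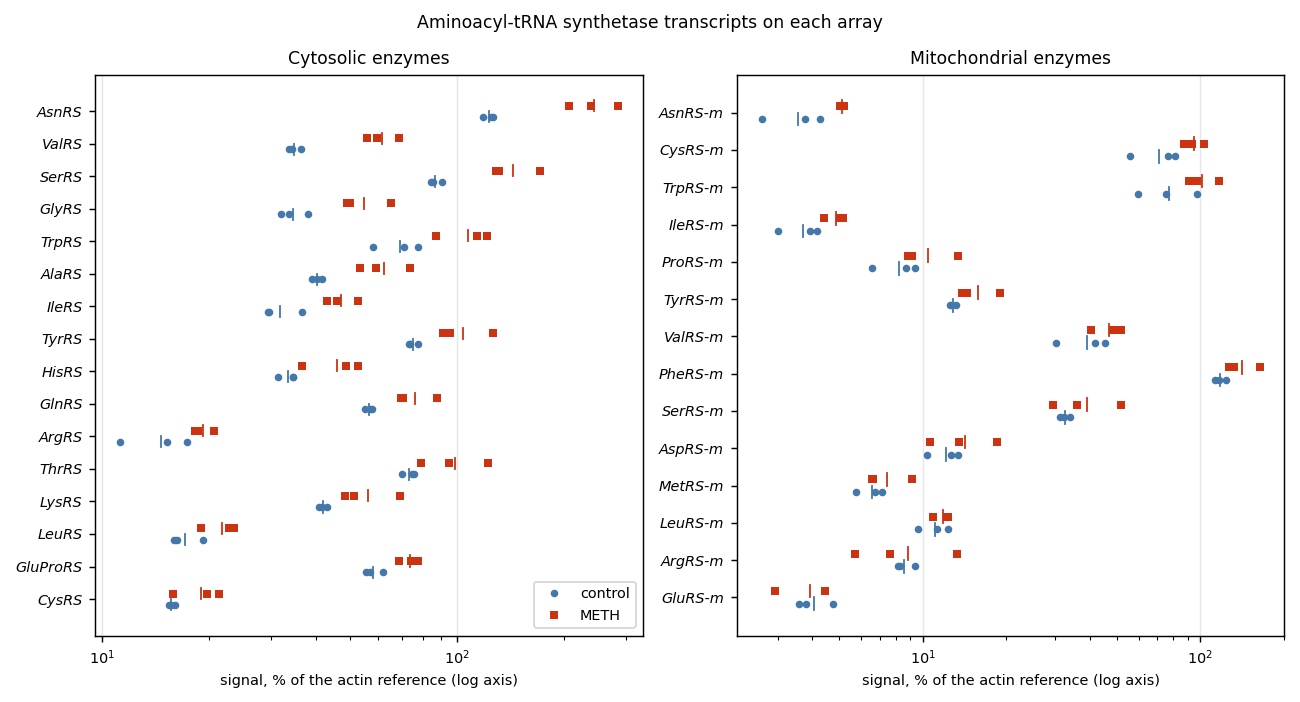
Signal of each measured synthetase gene on each array, as a percentage of actin on a log axis, for the 16 cytosolic and the 14 mitochondrial enzymes. Circles are control arrays, squares are METH arrays and the short bars are group means (n = 3 each); the diets are apart for 14 cytosolic and 5 mitochondrial genes.

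AsnRS, which charges the tRNA of asparagine, had the largest change among the members. Its signal was 118, 125 and 127% of actin on the control arrays. On the METH arrays it was 239, 207 and 285%. Each METH value was thus far above each control value, and the spread was wider on METH. The mean went from 123 ± 4.26 to 244 ± 39.1% (SD, n = 3 each), a 1.96-fold rise (log2 change 0.97, standard error 0.17, limma adjusted p = 0.00972). As deposited, before any scaling, its signals were 1442, 1149 and 1246 on the control arrays and 1990, 1795 and 1992 on the METH arrays, so the diets were apart without the reference as well. The call was lost without control replicate 3 (adjusted p = 0.0798) and in a fit in which the spread did not follow the signal level (adjusted p = 0.207), where 0.0906% of all probe sets were called higher, and the adjusted p ranged from 1.1e-04 to 0.207 over all limma settings run.

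ValRS charges the tRNA of valine and, in animals, is bound to the elongation factor that takes charged tRNA to the ribosome. It stood at 36.3, 34.3 and 33.6% of actin on the control arrays, and at 55.8, 59.7 and 68.9% on the METH arrays. The groups did not overlap. The rise was 1.76-fold, a log2 change of 0.82 ± 0.15 (standard error, limma adjusted p = 0.0153). The gene was read by a probe set whose name marks it as one that may match more than a single transcript. The call was lost with the signals as deposited (adjusted p = 0.225), in the fit without a trend (0.251), and without control replicate 2 (0.0512), control replicate 3 (0.138) or METH replicate 2 (0.071).

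A further 5 cytosolic genes had changes of 1.49- to 1.64-fold without reaching the adjusted threshold. SerRS, for serine, was at 84.5, 90.8 and 85.5% of actin in control flies and at 132, 129 and 171% in METH-treated flies. Its log2 change was 0.72 (standard error 0.17, limma adjusted p = 0.0637), and it passed the threshold after quantile normalization (adjusted p = 0.0461), where 0.858% of all probe sets were called higher, and with dim probe sets left out (0.0469), where 1.77% were. GlyRS, for glycine, differed between the diets by 0.66 ± 0.17 on the log2 scale (standard error, limma adjusted p = 0.107). The change of TrpRS, for tryptophan, was 0.64 (standard error 0.18, adjusted p = 0.165). TrpRS was the only member with several probe sets. The other probe sets of this gene had log2 changes of 0.57 and 0.44, and on each of them every METH array was above every control array. AlaRS, for alanine, and IleRS, for isoleucine, had log2 changes of 0.61 and 0.57, with adjusted p values of 0.136 and 0.171.

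The remaining 9 cytosolic genes lay closer to the median probe set, with log2 changes of 0.46 or less. TyrRS had a value of 0.46 and HisRS one of 0.44. GlnRS, ArgRS, ThrRS and LysRS, for glutamine, arginine, threonine and lysine, lay between 0.41 and 0.42. The 3 smallest changes were those of LeuRS, GluProRS and CysRS. LeuRS, for leucine, went from 17.2 ± 1.85 to 21.7 ± 2.42% of actin (SD, n = 3 each; log2 change 0.34, standard error 0.18, limma adjusted p = 0.448), and a METH array lay within the range of the control arrays. GluProRS, a single protein that charges the tRNAs of both glutamate and proline, went from 58.1 ± 3.33 to 73.5 ± 4.50% (log2 change 0.34, standard error 0.15, limma adjusted p = 0.426), with the arrays of the diets apart. CysRS, for cysteine, had a mean of 15.7 ± 0.30% on the control arrays and was at 15.8, 19.7 and 21.4% on the METH arrays, and METH replicate 1 lay among the controls. Its log2 change was 0.26 (standard error 0.18, limma adjusted p = 0.512). With the signals as deposited these 3 genes had log2 changes of -0.04, -0.04 and -0.11, so their direction depended on the scaling.

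**Figure D2:**
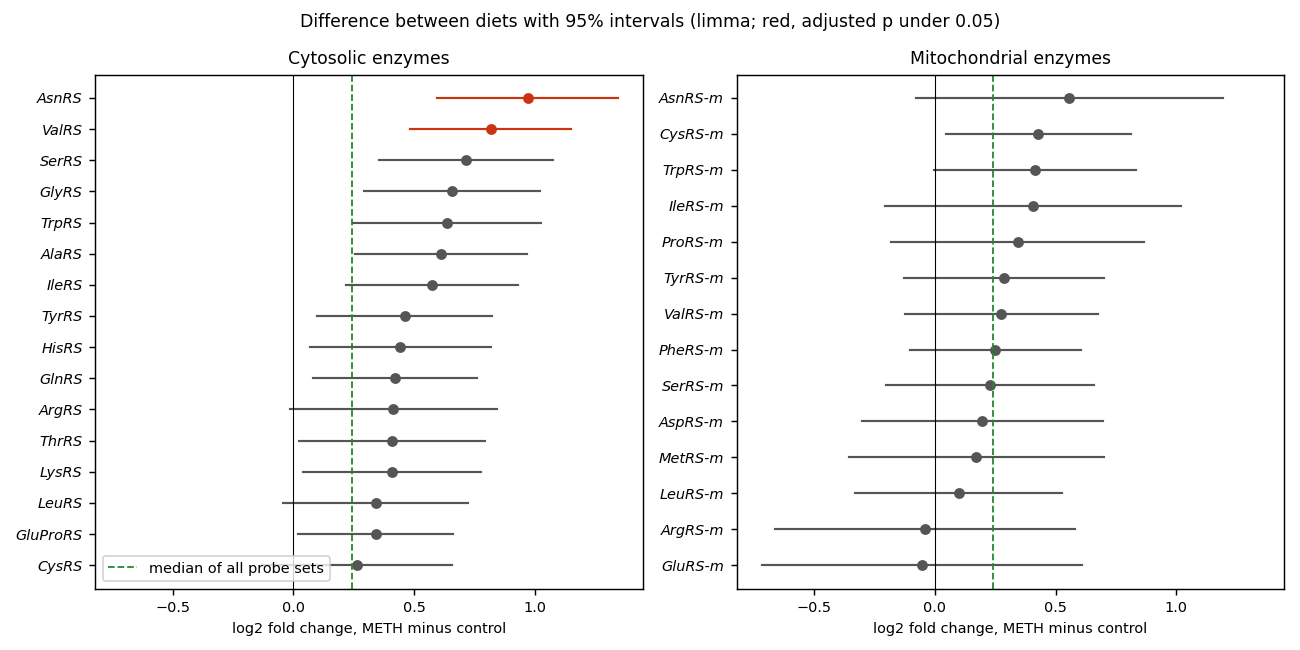
Log2 fold change of each member, METH minus control, with its 95% interval from limma (n = 3 per diet). Red marks the 2 genes with an adjusted p under 0.05, AsnRS and ValRS, the solid line is 0, and the dashed line is the median of all probe sets at 0.24.

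The cytosolic genes were also divided by the multisynthetase complex as it is known from mammals, a division made after the values had been seen. Of its members, GluProRS, IleRS, LeuRS, GlnRS, LysRS and ArgRS were measured. Their log2 changes were 0.34 to 0.57 with a median of 0.41, and none of the 6 passed the adjusted threshold. The 10 cytosolic enzymes outside it had values of 0.26 to 0.97 with a median of 0.62, and both called genes were among them. The ranges overlapped, and the difference was not tested.

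The mitochondrial synthetases stood close to the other transcripts. The log2 changes of these 14 genes lay between -0.05 and 0.56, and their median was 0.26, against 0.24 for all probe sets, and 8 of them were above that median. None passed the adjusted threshold of limma in either direction. The unadjusted p was under 0.05 for CysRS-m alone, which was higher, and none was called by the methods' t-test at either cutoff. The METH arrays lay above the control arrays for 5 of the 14 genes, where 15.7% of all probe sets did so, and for 2 (AsnRS-m and CysRS-m) after centring on the array median, where 7.33% of all probe sets did. With the signals as deposited their median log2 change was -0.11. PheRS-m then lay below every control array on all METH arrays, as 13.6% of all probe sets did, although it was higher relative to actin.

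AsnRS-m, CysRS-m and TrpRS-m had the largest values among the mitochondrial enzymes. AsnRS-m was at 2.63, 4.28 and 3.76% of actin in control flies and at 5.21, 5.14 and 5.03% in METH-treated flies, so that the diets were apart and the METH arrays were close together. Its log2 change of 0.56 had a standard error of 0.29 (limma adjusted p = 0.45). CysRS-m went from 71.1 ± 13.5 to 94.8 ± 8.11% (SD, n = 3 each; log2 change 0.43, standard error 0.18, limma adjusted p = 0.416). TrpRS-m went from 77.2 ± 18.7 to 102 ± 13.8% (log2 change 0.41, standard error 0.19, limma adjusted p = 0.435), and control replicate 2 lay within the METH values. At the other end, GluRS-m, ArgRS-m and LeuRS-m had log2 changes of -0.05, -0.04 and 0.10 (standard errors 0.31, 0.29 and 0.20, limma adjusted p = 0.942, 0.952 and 0.829). ArgRS-m was at 8.26, 9.37 and 8.12% in control flies and at 5.69, 7.64 and 13.3% in METH-treated flies. The METH arrays of this gene therefore fell on both sides of the controls.

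The mitochondrial transcripts included dim ones. The mean deposited signal in control flies was below 100 for 6 of the 14 mitochondrial genes and for none of the 16 cytosolic ones. The standard errors of the log2 changes were 0.16 to 0.31 for the mitochondrial and 0.15 to 0.20 for the cytosolic genes. Among the mitochondrial genes the lowest limit of the 95% intervals was -0.72, for GluRS-m, and the highest was 1.19, for AsnRS-m. A total of 13 cytosolic and 1 mitochondrial gene had an interval wholly above 0. They are the genes already counted with an unadjusted p under 0.05, against 9.38% of all probe sets in the higher direction, and the median probe set itself lay at 0.24.

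A ratio of a cytosolic to a mitochondrial transcript on the same array does not depend on how the arrays are scaled. The mean log2 value of the 16 cytosolic genes minus that of the 14 mitochondrial genes, set to 0 for the mean of the control arrays, was 0.10, -0.05 and -0.05 on the control arrays. On the METH arrays it was 0.34, 0.22 and 0.27, so that the arrays of the diets were apart. Scaled by the actin reference alone, the cytosolic mean stood 0.39, 0.49 and 0.71 above its control mean on the METH arrays and the mitochondrial mean 0.05, 0.28 and 0.44. Both were highest on METH replicate 3, the array with the lowest actin signal, and 13 cytosolic and 9 mitochondrial genes had their highest METH value there. Centred on the array medians, the cytosolic mean was 0.31, 0.22 and 0.49 above its control mean, and the mitochondrial mean was -0.03, 0.01 and 0.21 from its own.

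**Figure D3:**
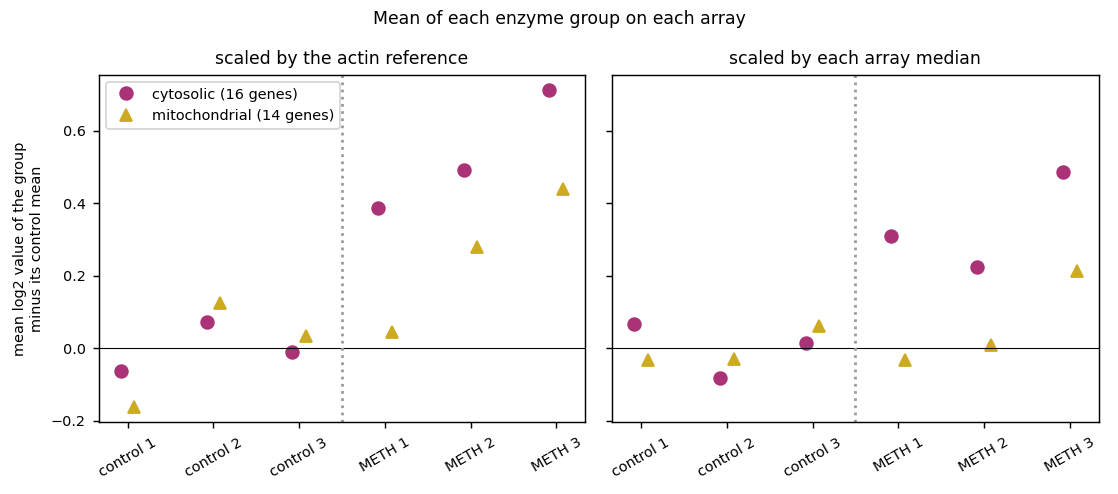
Mean log2 value of the cytosolic (circles, 16 genes) and mitochondrial (triangles, 14 genes) enzymes on each array, minus the mean of the control arrays, relative to actin on the left and with centring on the array median on the right. The cytosolic mean is above all control arrays on each METH array with either scaling, and with median centring the mitochondrial mean is -0.03, 0.01 and 0.21 on the METH arrays.

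The same ratio was examined for the 11 pairs in which a cytosolic and a mitochondrial enzyme serve the same amino acid, with GluProRS set against both GluRS-m and ProRS-m. The ratio was higher in METH-treated flies for 9 pairs. For SerRS, LeuRS and TyrRS every METH array was above every control array, and for no pair was every METH array below. How often ratios between other probe sets are apart in this way was not examined, and all pairs were read on the same arrays. The ratio of SerRS to SerRS-m changed by 0.49 on the log2 scale (standard error 0.14, n = 3 each), that of LeuRS to LeuRS-m by 0.24 (standard error 0.12) and that of TyrRS to TyrRS-m by 0.18 (standard error 0.04). These 3 pairs had a two-sided exact permutation p of 0.1, the smallest that 3 arrays against 3 allow, and 0.367 after Benjamini-Hochberg adjustment over the 11 pairs. The largest difference, 0.54 for ValRS against ValRS-m (standard error 0.23), had overlapping arrays, as did that of AsnRS against AsnRS-m (0.41, standard error 0.23). CysRS went the other way against CysRS-m, by -0.17 (standard error 0.21), with overlapping arrays. TyrRS and GluRS-m are next to each other in the RefSeq annotation of the Drosophila genome and had log2 changes of 0.46 and -0.05.

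**Figure D4:**
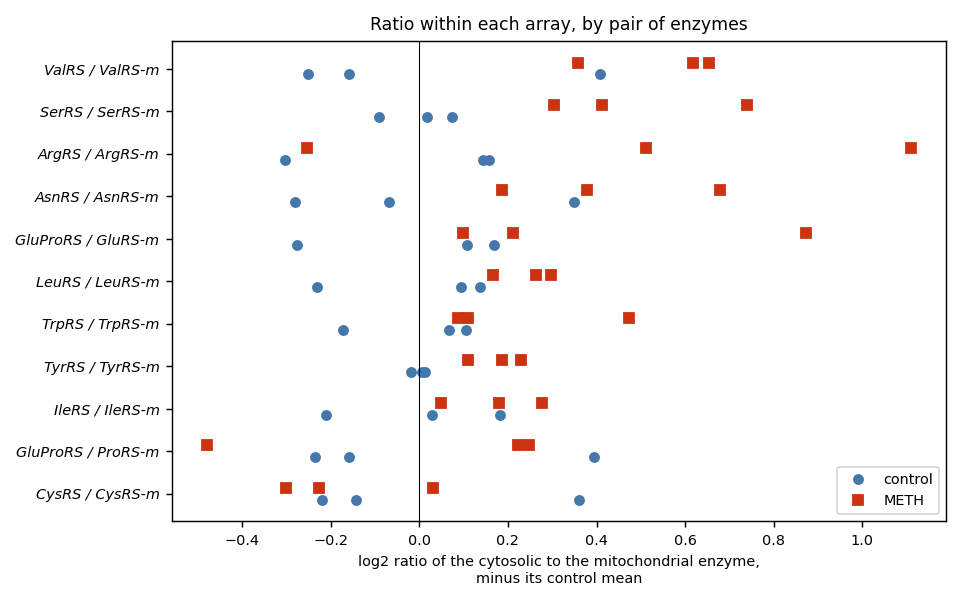
Log2 ratio of a cytosolic to a mitochondrial enzyme within each array, minus the mean of the control arrays, for 11 pairs. Circles are control and squares are METH arrays; the diets are apart for SerRS, LeuRS and TyrRS, whose exact permutation p is 0.1.

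The cytosolic enzyme for phenylalanine is built from subunits named alpha-PheRS and beta-PheRS, which the naming rule does not take. Their log2 changes were 0.32 (standard error 0.18) and 0.28 (standard error 0.18), with limma adjusted p values of 0.46 and 0.493. Both were below 0 with the signals as deposited, and the arrays of the diets overlapped for both. The 11 measured partners of the synthetases are the scaffold proteins of the complex, elongation factors that receive charged tRNA, the glutamyl-tRNA amidotransferase of the mitochondrion and the seryl-like protein Slimp. None of them passed the adjusted threshold of limma, against 0.842% of all probe sets in the higher and 0.416% in the lower direction. None had an unadjusted p under 0.05, against 9.38% and 2.12%. Their median log2 change was 0.28 relative to actin and -0.099 as deposited. AIMP2 had a value of 0.39, AIMP1 one of 0.35 and eEF1delta, a subunit of the exchange factor for the elongation factor, one of 0.29.

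Genes of amino acid supply and of the Gcn2 pathway did not move in a single direction. Of 23 measured genes of this list, limma's adjusted threshold was passed by 1 that rose and 1 that fell, against 0.842% and 0.416% of all probe sets. An unadjusted p under 0.05 was found for 11 in the higher and 1 in the lower direction, against 9.38% and 2.12% of all probe sets. The median log2 change of the list was 0.30 relative to actin, with 19 of the 23 genes above 0. As deposited it was -0.081, with 11 above 0. AsnS, which makes asparagine from aspartate, fell. Its control arrays stood at 51.9, 33.2 and 39.4% of actin, and its METH arrays at 20.9, 18.5 and 26.2%, without overlap (log2 change -0.92, standard error 0.20, limma adjusted p = 0.0429). The fall was called under every scaling of the arrays but lost with low values floored, without the trend, and without control replicate 1 or 3 or METH replicate 1 or 2, where the adjusted p was 0.0657 to 0.415. The ratio of AsnRS to AsnS on the same array, a pair chosen after the values had been seen, was 1.92, 1.89 and 1.85 above its control mean on the log2 scale on the METH arrays, whereas the control arrays lay between -0.40 and 0.31. Shmt, which turns serine into glycine, rose from 149 ± 8.56 to 285 ± 53.6% (SD, n = 3 each; log2 change 0.92, standard error 0.18, limma adjusted p = 0.0221), a call lost with the signals as deposited, with median centring, without the trend, and without control replicate 2 or 3 or METH replicate 1 (adjusted p = 0.0557 to 0.27). Gs1, a glutamine synthetase, and MsrA, which repairs oxidized methionine, had log2 changes of 0.76 and 1.03 with adjusted p values of 0.0662 and 0.0825.

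Other genes of translation were set beside the synthetases. Of 30 measured genes of initiation and release factors, 1 passed limma's adjusted threshold as higher, against 0.842% of all probe sets. It was eIF2beta, a subunit of the factor that brings the initiator tRNA to the ribosome. Its level was 97.0 ± 7.12% of actin in control and 171 ± 13.0% with METH (SD, n = 3 each; log2 change 0.82, standard error 0.16, limma adjusted p = 0.0184). The call was lost with the signals as deposited, without the trend, and without control replicate 1 or 3 or METH replicate 1 or 2 (adjusted p = 0.0545 to 0.241). All 30 had a log2 change above 0 relative to actin, with a median of 0.34, but 10 of them did with the signals as deposited, with a median of -0.041. Relative to actin an unadjusted p under 0.05 was found for 10, all higher, against 9.38% of all probe sets, and for 1 as deposited. Of 21 genes that make ribosomes, limma's adjusted threshold was passed by none. An unadjusted p under 0.05 was found for 11, all higher, against 9.38% of all probe sets. This number was 1 with the signals as deposited and 3 with median centring. The methods' t-test called 1 at a p of 0.005 and 2 at a p of 0.008, against 0.922% and 1.25% of all probe sets called higher. The median of these 21 genes, 0.47 or 0.089 as deposited, was close to that of the cytosolic synthetases under these 2 scalings. The medians of the ribosome-making genes and of the cytosolic synthetases were 0.25 and 0.21 after quantile normalization. With shared probe sets left out they were 0.36 and 0.44, and without control replicate 1 they were 0.32 and 0.44. The mean of the 21 genes stood 0.29, 0.37 and 0.59 above its control mean on the METH arrays, against 0.39, 0.49 and 0.71 for the cytosolic synthetases. Non1, a GTPase that helps to assemble the large ribosomal subunit, had a log2 change of 0.75 and Fib, the rRNA methylase fibrillarin, one of 0.63, with adjusted p values of 0.107 and 0.172. Of 18 genes of tRNA processing and modification, limma's adjusted threshold was passed by none, and none was called by the methods' t-test at either cutoff. An unadjusted p under 0.05 was found for 4, all higher, against 9.38% of all probe sets, and for none as deposited. The median of these 18 genes was 0.36, or -0.018 as deposited, and RtcB, the ligase that seals spliced tRNAs, had a log2 change of 0.58 (adjusted p = 0.226).

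**Figure D5:**
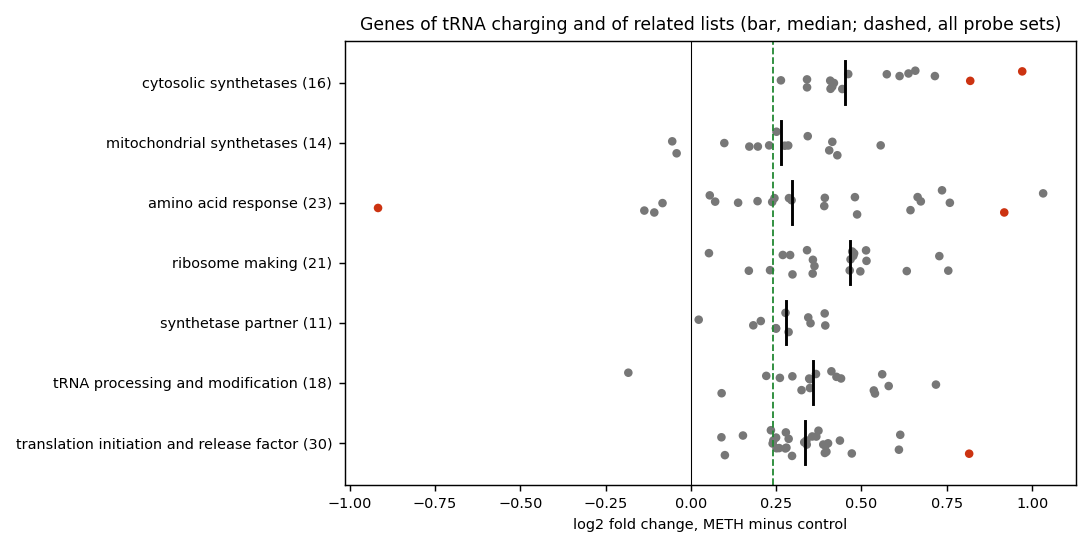
Log2 fold change, METH minus control, of the genes of each list (points) with the list's median (bar); the number of measured genes is in parentheses and red marks an adjusted p under 0.05 from limma. The dashed line is the median of all probe sets at 0.24, and the medians of the cytosolic synthetases and of the ribosome-making genes, 0.45 and 0.47, lie farthest above it.

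Markers of single tissues were examined in the same whole-fly samples. Of 7 midgut markers, 3 passed limma's adjusted threshold as lower in METH-treated flies, against 0.416% of all probe sets. These were Jon25Bi, Jon25Bii and mag, with log2 changes of -2.98, -3.25 and -1.22, and the median of the 7 was -1.12. The mean log2 value of the 7 relative to actin was 0.32 to 0.75 on the control and -0.83 to -0.54 on the METH arrays. Their summed level lay between 2276 and 3241% of actin for control and between 1997 and 2698% for METH arrays. Most of each sum came from markers that did not pass the threshold. Of 6 accessory gland markers 1 passed it as lower, Acp26Aa, against the same 0.416%, with sums of 1459 to 2145% and 1350 to 1964%. Relative to actin, none of the 7 testis, 4 muscle, 4 fat body or 3 eye and head markers passed the adjusted threshold of limma. At an unadjusted p under 0.05, 3 testis markers were higher, against 9.38% of all probe sets. With the signals as deposited or with median centring no testis marker was, and dj had a log2 change of -0.21 relative to actin. In the lower direction 4 midgut and 2 accessory gland markers had such a p relative to actin, against 2.12% of all probe sets. With the signals as deposited 7 midgut, 5 accessory gland, 1 muscle and 1 fat body marker did, against 1752 of the 18769 probe sets. With median centring 6 midgut, 3 accessory gland and 1 muscle marker did, against 794. As deposited, limma's adjusted threshold was passed as lower by 5 midgut, 3 accessory gland and 1 muscle marker, against 2.03% of all probe sets. The testis markers summed to 1109 to 1630% on the control and 1633 to 1922% on the METH arrays, and the eye and head markers to 1291 to 1773% and 1745 to 2230%. The sums were 1027 to 1162% and 923 to 1191% for muscle and 238 to 315% and 293 to 339% for fat body, where Fbp1 and Fbp2 were near background. The 7 markers of female tissues summed to 12.5 to 13.9% on the control and 14.9 to 18.5% on the METH arrays, most of it from Yp3. The part of tissue composition in the synthetase differences was not tested.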

How the data were processed

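RNA of whole w1118 males was measured on the Drosophila Genome 2.0 array of Affymetrix, 3 arrays per diet, and the authors quantified the images with GCOS 1.4. They deposited a signal intensity on the linear scale for each probe set of each array, neither logged nor divided by actin, and a scaling to a common target is not given in the sources used here. The groups are the diets named in the sample titles.

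Each signal was turned into a log2 value, that of AFFX-Dros-ACTIN_M_r on the same array was taken off, and 183 AFFX probe sets were left out, with no filter on dim ones. R 4.3.3 and limma 3.58.1 (lmFit, and eBayes with a trend) gave two-sided p values for METH minus control, adjusted over 18769 probe sets after Benjamini and Hochberg at a threshold of 0.05. Of these probe sets 13647 were paired with 1 gene in the platform annotation, with symbols updated by gene identifier for 13544, 402 with several and 4720 with none, and the brightest probe set stands for a gene. Precision is limited by the number of arrays, and 3 against 3 allow no exact permutation p below 0.1. On simulated arrays for this comparison, with 200 of 18769 probe sets changed, limma recovered 41.3% of changes of 1, 67.3% of 2 and 76.5% of 3 on the log2 scale. It also made 11.5 false calls per run on average. The changed probe sets were drawn at random from all, dim ones included, so these shares are not those of the members.

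The methods' t-test was run at the cutoff in the study's methods, a p of 0.005 or less and at least 1.5-fold, added after seeing the data, and at the p below 0.008 and over 1.5-fold of its pathway analysis. SAM, which the methods name, was not run. Members, gene lists and alternatives were chosen with earlier results of these data known. Members were named by a rule (those past the threshold and the 3 highest and 3 lowest of each compartment in full, the others by counts and range, and, from each other list, at most the 4 genes with the smallest adjusted p). Alternatives were other scalings of the arrays, a filter and a floor on low values, no trend, shared probe sets left out, averaging the probe sets of a gene, the replicate number as a block and leaving out each array. Plots used Python 3.11.15 and matplotlib 3.10.9.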

Additional observations from a re-analysis of the deposited data

How the results depend on the processing

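The 2 calls among the cytosolic synthetases became 1 with the signals as deposited, 1 with shared probe sets left out, which removed that of ValRS, none without the trend, and 0 to 2 with an array left out. Their median log2 fold change was 0.076 as deposited, 0.26 with median centring, 0.23 with 75th percentile centring and 0.21 after quantile normalization, and 0.41 to 0.58 with an array left out. For the mitochondrial enzymes it was -0.11, 0.072, 0.037 and 0.022 under the same scalings and 0.15 to 0.38 with an array left out, and none was called under any limma setting or by the methods' t-test at either cutoff. Relative to the median probe set the cytosolic median stayed at 0.19 to 0.28 under every alternative run. SAM was not run.

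Over all probe sets, those lower numbered 381 as deposited, 169 with median centring, 211 with 75th percentile centring and 264 after quantile normalization. Without the trend 17 were higher and 7 lower. By the methods' t-test at a p of 0.005, an alternative added after seeing the data, 48 were lower. With an array left out 103 to 143 were higher and 56 to 92 lower. Of the amino acid response genes none was higher as deposited, with median centring or without the trend, 4 after quantile normalization, 3 with dim probe sets left out, 2 by the methods' t-test at a p of 0.008 and 2 with probe sets of a gene averaged. Of the same genes 2 were lower as deposited, none with low values floored, without the trend or by the methods' t-test at either cutoff, and with an array left out 0 to 1 were higher and 0 to 1 lower. Of the initiation and release factors none was higher as deposited or without the trend, and 0 to 1 with an array left out. Of the ribosome-making genes 1 was higher after quantile normalization, 1 with dim probe sets left out, and 2 and 1 by the methods' t-test at a p of 0.008 and of 0.005. Under these settings, in the same order, 0.858%, 1.77%, 1.25% and 0.922% of all probe sets were called higher.

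Nothing says that the replicate numbers pair the samples, and the deviations of same-numbered arrays correlated at only 0.022 to 0.064. A replicate block raised the calls to 1033 higher and 260 lower over all probe sets, 9 cytosolic synthetases, 6 amino acid response genes, 4 initiation and release factors, 11 ribosome-making genes and 3 of tRNA processing.

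Changes of direction occurred only in genes that passed no adjusted threshold under the main setting. As deposited, the log2 fold change was -0.036 for LeuRS, -0.036 for GluProRS, -0.11 for CysRS, -0.034 for ProRS-m, -0.091 for TyrRS-m, -0.10 for ValRS-m, -0.13 for PheRS-m, -0.15 for SerRS-m, -0.18 for AspRS-m, -0.20 for MetRS-m, -0.28 for LeuRS-m, -0.054 for alpha-PheRS, -0.10 for beta-PheRS, -0.025 for AIMP1 and -0.090 for eEF1delta. With median centring it was -0.019 for MetRS-m and -0.093 for LeuRS-m, and with 75th percentile centring -0.030 for AspRS-m, -0.055 for MetRS-m and -0.13 for LeuRS-m. After quantile normalization it was -0.016 for PheRS-m, -0.0013 for SerRS-m, -0.0015 for AspRS-m, -0.033 for MetRS-m and -0.10 for LeuRS-m. With an array left out it ran from -0.38 to 0.23 for ArgRS-m, from -0.16 to 0.14 for GluRS-m and from -0.016 to 0.39 for AspRS-m. The cause of these shifts was not tested.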

Other observations

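The structural classes of the cytosolic synthetases were set side by side after the values had been seen. The 8 measured enzymes of class I, among them ValRS, TrpRS and IleRS, had log2 fold changes of 0.26 to 0.82 with a median of 0.44, and 5 had an unadjusted p under 0.05 from limma. The 7 of class II, among them AsnRS, SerRS and GlyRS, had 0.41 to 0.97 with a median of 0.61, and all 7 had an unadjusted p under 0.05. Among all probe sets 9.38% had such a p in the higher direction. These counts depended on the scaling, since 3 of all 16 cytosolic genes had such a p with the signals as deposited and 7 with median centring. GluProRS holds a part of each class and was left out. The ranges overlapped, and the difference between the classes was not tested.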
